A study of Mus musculus with 9 samples.

Results

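The 10 genes described here are the cathepsin genes Ctsa, Ctsb, Ctsc, Ctsd, Ctsh, Ctsk, Ctsl, Ctss and Ctsz and the cystatin C gene, Cst3. Cystatin C is a secreted inhibitor of the cysteine cathepsins. The 10 genes were chosen by name. They and the other gene lists were chosen with earlier results of these data known, so the counts that passed describe a chosen set. All 10 were found among the 55536 genes of the count table and among the 13815 genes with enough counts to be tested. RNA was sequenced from mouse bone marrow-derived macrophages (BMDM), which were grown from marrow cells of male mice aged 6 to 12 weeks with the growth factor M-CSF (25 ng/mL over 6 days). Every recipient culture had a wild-type genotype. The cultures then received, for 18 hours, exosomes from BMDM of ApoE-deficient mice (EKO-BMDM-exo, 3 libraries), exosomes from wild-type BMDM (WT-BMDM-exo, 3 libraries), both at 2e+09 particles/mL, or the vehicle PBS (3 libraries). ApoE is a lipid carrier protein that macrophages secrete, and exosomes are small vesicles that cells release. The genotype that differs between the exosome groups is that of the donor cells, which RNA of the recipient cells does not check. The design text calls the replicates biological without saying whether mice or vesicle preparations were separate, and the p-values therefore reflect only how far these libraries differ from one another.

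Cathepsins are proteases that work in the acidic lumen of lysosomes and endosomes, where macrophages degrade what they engulf. They are made as inactive precursors, are directed to lysosomes largely by a mannose 6-phosphate tag, and are cut there into their active forms. Cystatin C blocks the cysteine cathepsins outside the cell and along the secretory route. Cathepsin S and, in some cells, cathepsin L also process the invariant chain of MHC class II.

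Against PBS, both kinds of exosome were followed by more Ctsd, Ctsb and Ctsz RNA and less Ctsc and Ctsl RNA. The changes were modest, from 7.10% for Ctsb to -25.4% for Ctsc in EKO-BMDM-exo cultures. In edgeR's quasi-likelihood test with Benjamini-Hochberg adjustment over all genes, 6 of the 10 genes passed a threshold of 0.05 for EKO-BMDM-exo over PBS, 3 higher and 3 lower. Of all genes tested, 4.23% passed in that comparison, 1.82% higher and 2.41% lower. For WT-BMDM-exo over PBS 5 of the 10 passed, 3 higher and 2 lower, where 4.11% of all genes did, 1.93% higher and 2.18% lower. Between the exosomes 1 of the 10 passed, Ctsb, which was lower in EKO-BMDM-exo cultures, and 0.695% of all genes did, 0.282% higher and 0.413% lower. A test for any difference among the groups passed for 5 of the 10, Ctsb, Ctsc, Ctsd, Ctsl and Ctsz, and for 5.28% of all genes. EKO-BMDM-exo and PBS libraries did not overlap for 4 of the 10 genes that were higher and 4 that were lower. Over all genes tested these shares were 9.06% and 9.24%. For WT-BMDM-exo and PBS they were 4 higher and 2 lower, and over all genes tested 8.59% and 8.87%. The median log2 fold change over the 10 genes was 0.052 for EKO-BMDM-exo over PBS, 0.062 for WT-BMDM-exo over PBS and -0.051 between the exosomes, and the medians over all genes were -0.00052, -0.0033 and 0.00019. Without regard to sign, the medians over all genes were 0.118, 0.120 and 0.103. The called changes of Ctsb (0.099) and Cst3 (-0.110) for EKO-BMDM-exo over PBS were smaller than that, as was that of Ctsb between the exosomes (-0.096). The shares over all genes were not matched to the high levels of most of these 10 genes. Both comparisons with PBS share the same 3 PBS libraries, so their values are given side by side and not as independent results. In bulk RNA, fewer cells that express a gene and less RNA per cell cannot be told apart.

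The 9 libraries held 28581306 to 35929596 counts. The 10 genes together took 3.23% to 3.32% of a library's counts in EKO-BMDM-exo cultures, 3.39% to 3.44% in WT-BMDM-exo cultures and 3.06% to 3.13% in PBS cultures. In a principal component analysis of all tested genes, replicate 3 of WT-BMDM-exo stood at 57.5 on component 1, against -16.8 to 3.43 for the others. Replicate 2 of EKO-BMDM-exo, at 38.0, and replicate 2 of WT-BMDM-exo, at -45.4, lay at the ends of component 2. Without any one of these 3 libraries, Ctsd, Ctsb, Ctsz, Ctsc and Ctsl still passed against PBS in both exosome groups.

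Levels of different genes are compared as CPM (counts scaled to library size) per kb of each gene's principal transcript in GENCODE M21. On that scale and as means over the 9 libraries, Ctsb (3483), Ctsd (3297) and Ctss (3200) were the highest of the 10, at ranks 7, 8 and 9 of all genes in the table. Their ranges overlapped. Ctsb was above Ctsd in 9 of 9 libraries, and Ctsd was above Ctss in 6 of 9. Cst3 (972), Ctsz (852), Ctsa (413), Ctsl (333), Ctsh (208) and Ctsc (66.7) followed in that order in all 9 libraries, and no range overlapped the next. Ctsk, the collagen-degrading protease of osteoclasts, was the lowest at 2.71. With the merged length of all exons of a gene as the divisor, a length chosen after seeing the data, the order at the top was Ctss, Ctsd and Ctsb, and Ctsz lay above Cst3. Without division by length, Ctsb, whose principal transcript is 4743 bases long, held 50.7% of the counts of the 10 genes.

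**Figure D1:**
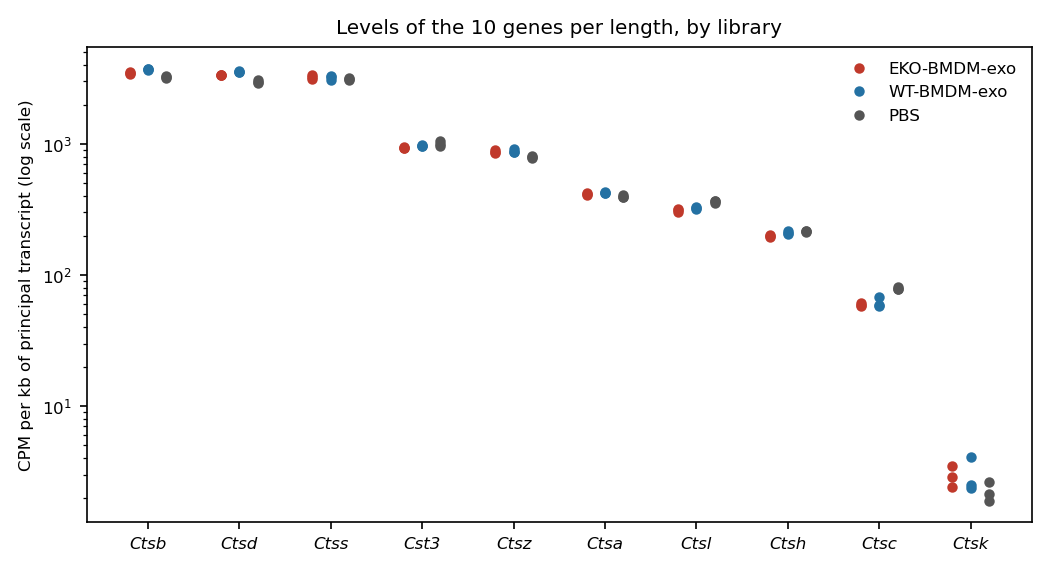
Level of each gene in CPM per kb of its principal transcript (log axis), with a point for each of the 9 libraries in columns for EKO-BMDM-exo, WT-BMDM-exo and PBS. Ctsb, Ctsd and Ctss lie together near the top, and Ctsk lies far below the other 9 genes.

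Promoter windows of the 4 genes that moved in both comparisons with PBS and have an entry in the RefSeq promoter table (GRCm38.p6) are shown so that the motifs named for lysosomal and myeloid genes can be seen in place. Each runs from 250 bases before the RefSeq start to 50 bases after it, 5′ to 3′ on the gene's strand, and the genes were picked for printing after their values were known. Capitals mark matches, on either strand, to CACGTG (the E-box), to the same letters flanked by T and A (the core of the CLEAR element, the site bound by TFEB), or to GAGGAA (a PU.1 core), which reads TTCCTC on the opposite strand. The windows are chr7:142387778-142388077 on the minus strand for Ctsd, chr2:174438990-174439289 on the minus strand for Ctsz, chr7:88277835-88278134 on the plus strand for Ctsc and chr13:64370471-64370770 on the minus strand for Ctsl.
Ctsd: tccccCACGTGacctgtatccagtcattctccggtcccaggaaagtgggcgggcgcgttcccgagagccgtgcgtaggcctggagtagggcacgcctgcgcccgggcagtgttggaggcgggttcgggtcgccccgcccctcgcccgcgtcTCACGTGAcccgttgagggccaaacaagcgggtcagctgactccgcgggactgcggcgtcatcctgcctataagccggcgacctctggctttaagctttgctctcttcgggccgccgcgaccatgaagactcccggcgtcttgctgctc
Ctsz: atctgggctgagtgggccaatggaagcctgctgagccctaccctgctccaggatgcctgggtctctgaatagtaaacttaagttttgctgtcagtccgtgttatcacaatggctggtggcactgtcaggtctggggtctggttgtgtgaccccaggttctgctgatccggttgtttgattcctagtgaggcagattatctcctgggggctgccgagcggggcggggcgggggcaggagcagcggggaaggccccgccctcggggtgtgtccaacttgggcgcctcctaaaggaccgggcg
Ctsc: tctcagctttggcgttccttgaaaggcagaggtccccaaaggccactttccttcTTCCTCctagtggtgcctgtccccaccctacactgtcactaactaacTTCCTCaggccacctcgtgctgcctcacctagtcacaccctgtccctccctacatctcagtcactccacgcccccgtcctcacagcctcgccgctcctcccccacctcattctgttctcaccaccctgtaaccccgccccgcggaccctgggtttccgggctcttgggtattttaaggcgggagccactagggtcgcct
Ctsl: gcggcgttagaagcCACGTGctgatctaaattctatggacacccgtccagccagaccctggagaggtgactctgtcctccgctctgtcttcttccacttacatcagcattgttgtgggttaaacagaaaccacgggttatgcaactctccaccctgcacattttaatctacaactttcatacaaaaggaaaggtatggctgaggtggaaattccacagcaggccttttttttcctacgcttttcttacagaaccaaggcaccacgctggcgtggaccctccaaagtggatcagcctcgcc

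The Ctsd window held the E-box letters at 245 and 98 bases before the start, and the second match had the CLEAR flanks. Ctsl held them once, at 236 bases before the start. Ctsc held the PU.1 letters at 196 and 149 bases before the start, and Ctsz held none of the motifs. In all, 8 of the 10 genes had an entry, in 9 windows because Ctsa has 2, and Ctsb and Ctsh had none. The CLEAR core was in windows of Ctsa and Ctsd, against 0.974% of all 32851 windows, and the E-box in Ctsa, Ctsd and Ctsl, against 7.15%. The PU.1 letters were in Cst3, Ctsc, Ctsk and Ctss, against 28.3% of all windows. The interferon-stimulated response element, searched as GAAA and GAAA with any 2 bases between, was in Ctss alone of the 8 genes with a window, at 21 bases before the start, against 3.44%. A match describes the letters of a window, and binding was not measured.

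Ctsd (ENSMUSG00000007891, chromosome 7, 142375911 to 142388038, minus strand) encodes cathepsin D, the main aspartic protease of lysosomes, which also activates other hydrolases. It had 7094, 7108 and 7154 CPM in EKO-BMDM-exo cultures, 7536, 7611 and 7555 CPM in WT-BMDM-exo cultures and 6276, 6212 and 6577 CPM in PBS cultures. The groups were ordered, with the WT-BMDM-exo libraries highest, the EKO-BMDM-exo libraries between and the PBS libraries lowest, and no group overlapped another. For EKO-BMDM-exo over PBS the level was 12.0% higher (unadjusted 95% interval 8.39% to 15.8%), a fold change of 0.16 ± 0.023 on the log2 scale (SE; edgeR adjusted p = 6.68e-06). For WT-BMDM-exo over PBS it was 19.1% higher (15.2% to 23.1%), a fold change of 0.25 ± 0.023 on the log2 scale (edgeR adjusted p = 3.98e-09). Of the length of its exons, 34.4% overlaps an exon of Gm49369, which was listed at 0 in every library.

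Ctsb (ENSMUSG00000021939, chromosome 14, 63122462 to 63145923, plus strand) encodes cathepsin B, a cysteine protease that cuts both within chains and from their carboxyl ends. By CPM its RNA was at rank 3 of all genes. It had 16256, 16473 and 16801 CPM in EKO-BMDM-exo cultures, 17333, 17756 and 17832 CPM in WT-BMDM-exo cultures and 15215, 15313 and 15719.8 CPM in PBS cultures. The groups had the same order as for Ctsd and did not overlap. The log2 fold change was 0.099 ± 0.022 for EKO-BMDM-exo over PBS (edgeR adjusted p = 0.0028) and 0.19 ± 0.022 for WT-BMDM-exo over PBS (edgeR adjusted p = 1.10e-07). Ctsz (ENSMUSG00000016256, chromosome 2, 174427493 to 174439039, minus strand) encodes cathepsin Z, also called cathepsin X, a cysteine carboxypeptidase. Its libraries had 1259.7, 1237 and 1294 CPM in EKO-BMDM-exo cultures, 1261, 1243 and 1319 CPM in WT-BMDM-exo cultures and 1151, 1117 and 1169 CPM in PBS cultures. Both exosome groups lay above PBS and overlapped each other. The log2 fold change was 0.14 ± 0.029 for EKO-BMDM-exo over PBS (edgeR adjusted p = 0.0018) and 0.15 ± 0.029 for WT-BMDM-exo over PBS (edgeR adjusted p = 0.000699).

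**Figure D2:**
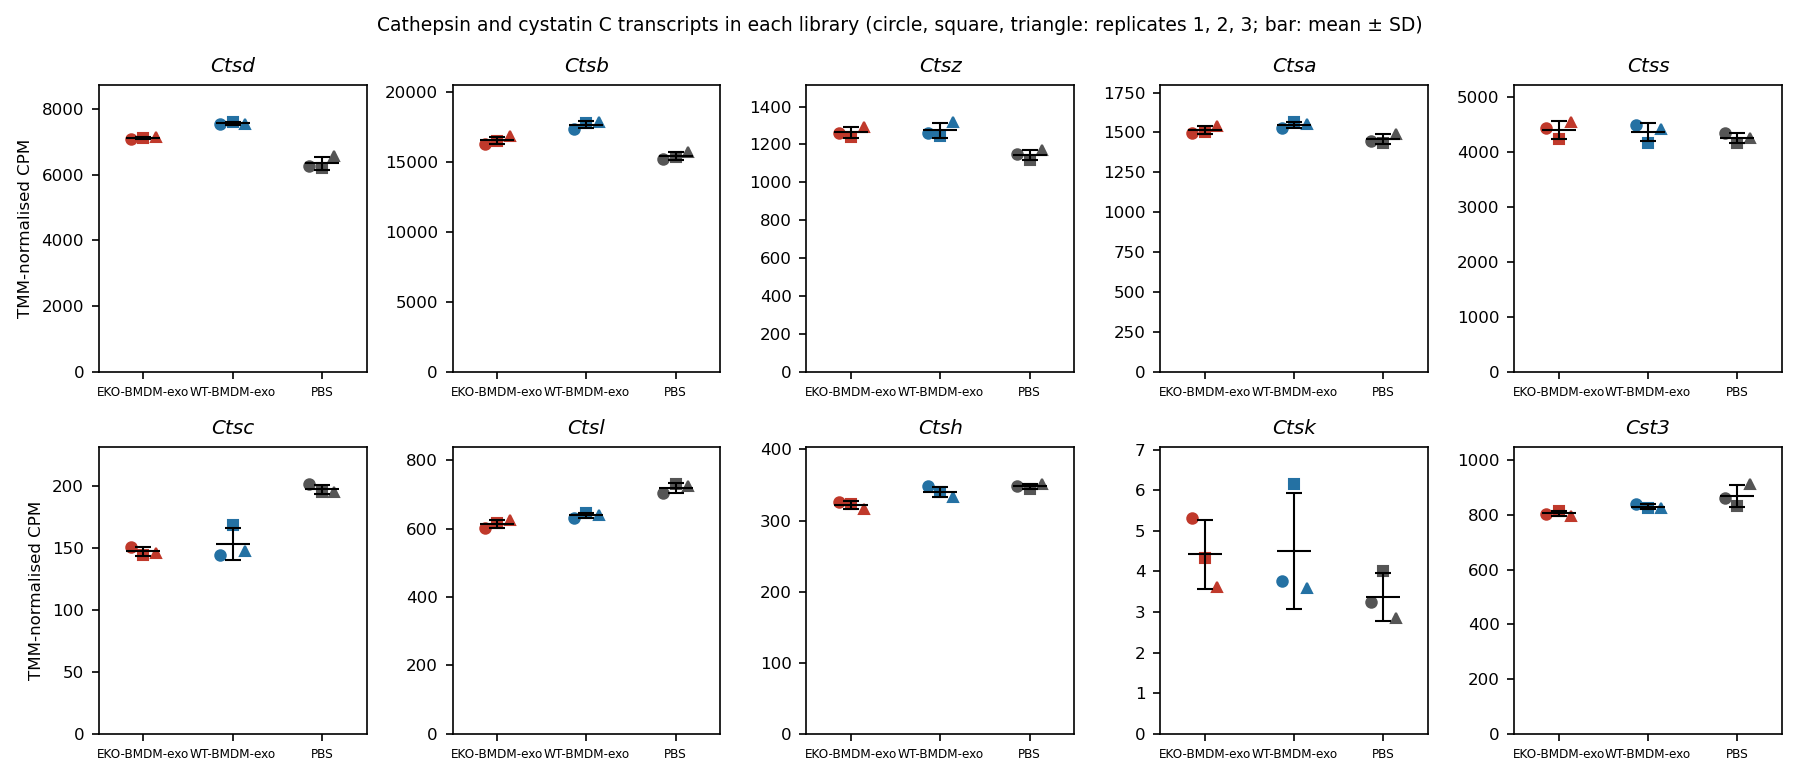
TMM-normalised CPM of each gene in each of the 9 libraries (circle, square and triangle for replicates 1, 2 and 3), with the mean and SD of EKO-BMDM-exo, WT-BMDM-exo and PBS; every vertical axis starts at 0. Ctsd, Ctsb and Ctsz lie higher, and Ctsc and Ctsl lower, in both exosome groups than in PBS cultures.

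The cysteine cathepsins Ctsc and Ctsl were lower in both exosome groups. Ctsc (ENSMUSG00000030560, chromosome 7, 88278085 to 88310888, plus strand) encodes cathepsin C, a dipeptidyl peptidase that matures the serine proteases stored in granules of neutrophils, mast cells and killer lymphocytes. It had 151, 145 and 146 CPM in EKO-BMDM-exo cultures, 144, 168 and 148 CPM in WT-BMDM-exo cultures and 202, 195 and 196 CPM in PBS cultures. All exosome libraries lay below all PBS libraries, and replicate 2 of WT-BMDM-exo was the highest of the exosome libraries. Against PBS the level changed by -25.4% (-30.3% to -20.1%) in EKO-BMDM-exo cultures, a fold change of -0.42 ± 0.049 on the log2 scale (edgeR adjusted p = 1.43e-07). In WT-BMDM-exo cultures it changed by -22.3% (-27.4% to -16.8%), a fold change of -0.36 ± 0.049 on the log2 scale (edgeR adjusted p = 3.09e-06). Of the 7 granule serine proteases that cathepsin C is known to mature, none had enough counts to be tested and 6 were at 0 in all libraries. The exception was Elane, the neutrophil elastase gene, at no more than 0.224 CPM. The 9 markers of neutrophils and their precursors summed to 2.43 to 12.5 CPM in EKO-BMDM-exo cultures, 6.98 to 18.7 CPM in WT-BMDM-exo cultures and 11.8 to 20.4 CPM in PBS cultures, with none at 0 in all libraries and none of the 4 tested past the threshold. Their part in the Ctsc result was not tested.

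Ctsl (ENSMUSG00000021477, chromosome 13, 64359337 to 64370890, minus strand) encodes cathepsin L, an endopeptidase of lysosomes. It had 602, 615 and 625 CPM in EKO-BMDM-exo cultures, 631, 646 and 638 CPM in WT-BMDM-exo cultures and 704, 729.7 and 724 CPM in PBS cultures. PBS libraries were the highest, EKO-BMDM-exo libraries the lowest, and no group overlapped another. The log2 fold change was -0.23 ± 0.030 for EKO-BMDM-exo over PBS (edgeR adjusted p = 1.82e-06) and -0.17 ± 0.030 for WT-BMDM-exo over PBS (edgeR adjusted p = 0.000246). Exons of Gm47123, at 0 to 20 counts a library, and of Gm49230, at 0, overlap 26.8% of its exon length. Ctsh (ENSMUSG00000032359, chromosome 9, 90054152 to 90076089, plus strand) encodes cathepsin H, a cysteine aminopeptidase. It had 326, 323 and 316 CPM in EKO-BMDM-exo cultures, 348, 339.6 and 333 CPM in WT-BMDM-exo cultures and 348, 344 and 351 CPM in PBS cultures. The EKO-BMDM-exo libraries were the lowest and did not overlap either other group, while WT-BMDM-exo overlapped PBS. The log2 fold change for EKO-BMDM-exo over PBS was -0.11 ± 0.035 and did not pass in edgeR (adjusted p = 0.0587). It passed with DESeq2 (adjusted p = 0.00773), limma-voom (adjusted p = 0.0414) and replicate number as a block in edgeR (adjusted p = 0.0377). In fits that left out 1 library it never passed, with an edgeR adjusted p of up to 0.235. For WT-BMDM-exo over PBS the log2 fold change was -0.032 ± 0.035 (edgeR adjusted p = 0.787).

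Ctss, Ctsk and Ctsa did not pass in edgeR in any comparison. Ctss (ENSMUSG00000038642, chromosome 3, 95526786 to 95556403, plus strand) encodes cathepsin S, which trims the invariant chain and stays active at neutral pH. It had 4433, 4229 and 4544 CPM in EKO-BMDM-exo cultures, 4487, 4169.7 and 4411 CPM in WT-BMDM-exo cultures and 4346, 4165 and 4243 CPM in PBS cultures, and the 3 groups overlapped. The interval for EKO-BMDM-exo over PBS ran from -0.44% to 7.68%, and that for WT-BMDM-exo over PBS from -1.48% to 6.56%. Ctsk (ENSMUSG00000028111, chromosome 3, 95499256 to 95509362, plus strand) had 5.31, 4.33 and 3.62 CPM in EKO-BMDM-exo cultures, 3.78, 6.15 and 3.59 CPM in WT-BMDM-exo cultures and 3.24, 4.01 and 2.86 CPM in PBS cultures, which were 96 to 190 counts a library. The groups overlapped, and the log2 fold change against PBS was 0.39 ± 0.27 for EKO-BMDM-exo (edgeR adjusted p = 0.620) and 0.42 ± 0.27 for WT-BMDM-exo (edgeR adjusted p = 0.546). Of the 8 osteoclast markers, the calcitonin receptor gene Calcr was at 0 in all libraries and Ocstamp, a fusion gene, was at no more than 0.426 CPM. Of the 5 that could be tested, 2 passed as higher for EKO-BMDM-exo over PBS and 1 for WT-BMDM-exo over PBS, where 1.82% and 1.93% of all genes tested did. Acp5, Dcstamp and Mmp9 passed in neither. Their log2 fold changes were -0.19, -0.23 and -0.27 for EKO-BMDM-exo over PBS and -0.094, -0.23 and 0.076 for WT-BMDM-exo over PBS. The median log2 fold change of the 5 was -0.19 for EKO-BMDM-exo over PBS and 0.076 for WT-BMDM-exo over PBS. Atp6v0d2, a subunit of the vacuolar proton pump, averaged 42.4 CPM in EKO-BMDM-exo cultures, 41.9 CPM in WT-BMDM-exo cultures and 32.5 CPM in PBS cultures, log2 fold changes of 0.38 ± 0.084 and 0.36 ± 0.085 against PBS (edgeR adjusted p = 0.00328 and 0.0062). Itgb3, an integrin subunit, averaged 12.4 CPM in EKO-BMDM-exo cultures and 8.50 CPM in PBS cultures (log2 fold change 0.54 ± 0.16, edgeR adjusted p = 0.0460). The Atp6v0d2 call for WT-BMDM-exo was lost without PBS replicate 3 (adjusted p = 0.0523). That of Itgb3 was lost without EKO-BMDM-exo replicate 1 or 3 (0.326 and 0.111), WT-BMDM-exo replicate 1 (0.0508) or PBS replicate 1 or 2 (0.217 and 0.149). The list summed to 64.4 to 69.2 CPM in EKO-BMDM-exo cultures, 62.8 to 67.9 CPM in WT-BMDM-exo cultures and 53.9 to 55.4 CPM in PBS cultures. Its part in the Ctsk values was not tested.

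Ctsa (ENSMUSG00000017760, chromosome 2, 164832873 to 164841032, plus strand) encodes cathepsin A, a serine carboxypeptidase that protects beta-galactosidase and neuraminidase 1 in a lysosomal complex. It had 1498, 1501 and 1542 CPM in EKO-BMDM-exo cultures, 1529.8, 1566 and 1553 CPM in WT-BMDM-exo cultures and 1444, 1437 and 1492 CPM in PBS cultures. Both exosome groups lay above PBS, without overlap. Over all genes tested, 9.06% did so for EKO-BMDM-exo and 8.59% for WT-BMDM-exo. The log2 fold change was 0.055 ± 0.027 for EKO-BMDM-exo over PBS (edgeR adjusted p = 0.392) and 0.088 ± 0.027 for WT-BMDM-exo over PBS (edgeR adjusted p = 0.0596). The second of these passed with DESeq2 (adjusted p = 0.00407), limma-voom (adjusted p = 0.00671) and replicate number as a block in edgeR (adjusted p = 0.0202). It also passed in edgeR without replicate 3 of PBS (adjusted p = 0.0278). Without any other 1 library it did not pass, with an edgeR adjusted p of up to 0.200. Exons of Neurl2, at 238 to 364 counts a library, and Pltp, at 32074 to 46559 counts, overlap 17.4% of the exon length of Ctsa. Those of Fdft1, at 313 to 557 counts, overlap 12.8% of that of Ctsb. Whether the counting used strand is not given in the sources used here, so reads from such overlaps cannot be assigned with certainty. The partners of cathepsin A, Glb1, Neu1 and Galns, did not pass in any comparison.

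Cst3 (ENSMUSG00000027447, chromosome 2, 148871722 to 148875692, minus strand), the inhibitor gene, had 806, 816 and 796 CPM in EKO-BMDM-exo cultures, 840.2, 826 and 826 CPM in WT-BMDM-exo cultures and 863, 835 and 913 CPM in PBS cultures. The EKO-BMDM-exo libraries were the lowest and overlapped neither PBS nor WT-BMDM-exo, and WT-BMDM-exo overlapped PBS. The level changed by -7.37% (-11.4% to -3.21%) for EKO-BMDM-exo over PBS, a fold change of -0.11 ± 0.031 on the log2 scale (edgeR adjusted p = 0.0317). For WT-BMDM-exo over PBS the log2 fold change was -0.066 ± 0.031 and did not pass (edgeR adjusted p = 0.315). The call for EKO-BMDM-exo ended with no filter on low counts (adjusted p = 0.0703). It also ended without replicate 1, 2 or 3 of EKO-BMDM-exo (adjusted p = 0.0962, 0.0858 and 0.138) and without replicate 1 or 3 of PBS (adjusted p = 0.0594 and 0.244). Set against the summed level per kb of the 7 cysteine cathepsins, the ratio of cathepsins to Cst3 was 8.69, 8.46 and 9.04 in EKO-BMDM-exo cultures, 8.64, 8.63 and 8.87 in WT-BMDM-exo cultures and 7.85, 7.98 and 7.46 in PBS cultures. Every exosome library was above every PBS library in this ratio, which is a description of RNA levels and not of protease activity. Ctsb made up 40.8% to 45.1% of the sum. Ctss, at a mean of 3200 CPM per kb, was the other large part, against 333 for Ctsl and 66.7 for Ctsc. The ratio was computed only with principal transcript lengths, and how often other ratios separate the groups was not computed.

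**Figure D3:**
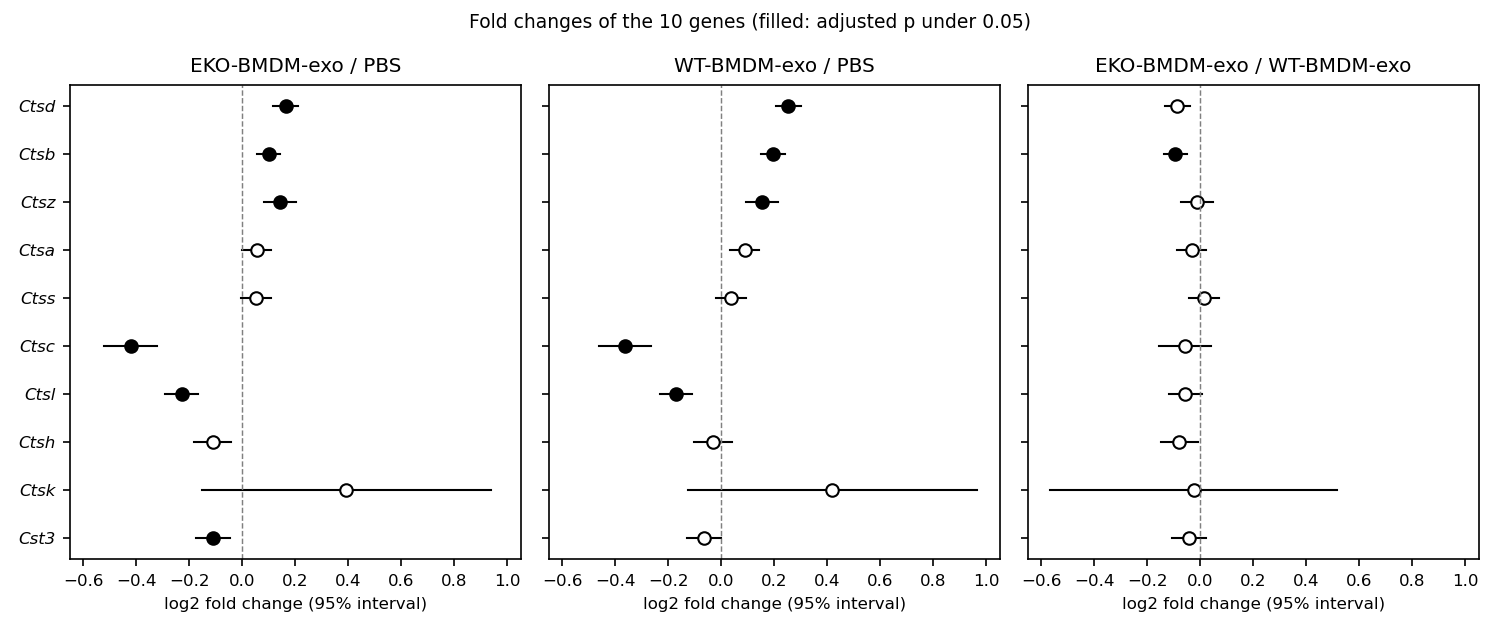
Log2 fold change of each gene with its unadjusted 95% interval for EKO-BMDM-exo over PBS, WT-BMDM-exo over PBS and EKO-BMDM-exo over WT-BMDM-exo (filled points passed an edgeR adjusted p of 0.05). Ctsd, Ctsb and Ctsz lie right of 0 and Ctsc and Ctsl left of it in both comparisons with PBS, and only Ctsb is filled in the third panel.

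The comparison of EKO-BMDM-exo with WT-BMDM-exo asked whether the donor genotype mattered for these genes. Ctsb averaged 16510.3 ± 274 CPM in EKO-BMDM-exo cultures and 17640.4 ± 269 CPM in WT-BMDM-exo cultures (SD, n = 3 each), a change of -6.41% (-9.20% to -3.53%) and a fold change of -0.096 ± 0.022 on the log2 scale (edgeR adjusted p = 0.0169). The 3 libraries of EKO-BMDM-exo all lay below the 3 of WT-BMDM-exo. The call ended without replicate 1 or 2 of EKO-BMDM-exo (adjusted p = 0.141 and 0.129) and without replicate 2 or 3 of WT-BMDM-exo (adjusted p = 0.0930 and 0.150). Ctsd averaged 7119 ± 31.4 CPM in EKO-BMDM-exo cultures and 7567 ± 38.9 CPM in WT-BMDM-exo cultures, a log2 fold change of -0.088 ± 0.023 that did not pass (edgeR adjusted p = 0.0753). It passed with DESeq2 (adjusted p = 0.00418), limma-voom (adjusted p = 5.17e-05) and replicate number as a block in edgeR (adjusted p = 0.00892). It also passed with only the 6 exosome libraries in the fit (adjusted p = 0.0220) and without replicate 3 of PBS (adjusted p = 0.0194). Under the other 10 of 15 alternatives it did not pass, and its edgeR adjusted p reached 0.303 with 1 library left out. For Ctsh, Ctsl and Cst3, EKO-BMDM-exo libraries also all lay below WT-BMDM-exo libraries. These 5 genes, Ctsb and Ctsd included, were the members without overlap between the exosome groups, and of all genes tested 14.0% did not overlap there, 7.01% lower in EKO-BMDM-exo cultures, while 0.695% passed the test in either direction. The log2 fold changes of Ctsh, Ctsl and Cst3 were -0.080 ± 0.035, -0.057 ± 0.030 and -0.044 ± 0.031, and none passed (edgeR adjusted p = 0.486, 0.654 and 0.789). Their unadjusted intervals ran from -9.91% to -0.69% for Ctsh, -7.93% to 0.30% for Ctsl and -7.17% to 1.36% for Cst3. Those of the remaining genes, as of Ctsl and Cst3, included 0, from -10.3% to 2.90% for Ctsc, -5.97% to 1.51% for Ctsa, -4.89% to 3.33% for Ctsz, -2.83% to 5.10% for Ctss and -32.5% to 42.9% for Ctsk.

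Of the genes that act beside these, the other cystatins and stefins came down to stefin B. Cstb, a cytosolic inhibitor of cysteine cathepsins, averaged 216 ± 8.23 CPM in EKO-BMDM-exo cultures, 221 ± 7.26 CPM in WT-BMDM-exo cultures and 185 ± 10.8 CPM in PBS cultures (SD, n = 3 each). It rose after both, with log2 fold changes of 0.23 ± 0.045 (edgeR adjusted p = 0.000932) and 0.26 ± 0.045 (edgeR adjusted p = 0.000146). Per kb its level was 358, 367 and 306 CPM in the same groups, below Cst3. Of the other 15 genes of that list found in the table, 12 were at 0 in every library, and Cst7, the cystatin F gene, was tested and did not pass. None of 6 serpin inhibitors passed in any comparison.

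Among 21 other cathepsins and lysosomal proteases, 10 could be tested. For EKO-BMDM-exo over PBS 2 rose (Dpp7 and Tpp1) and 1 fell (Cpq), and for WT-BMDM-exo over PBS 3 rose (Dpp7, Tpp1 and Scpep1). The shares of all genes tested were 1.82% higher and 2.41% lower in the first comparison, and 1.93% higher and 2.18% lower in the second. Dpp7, a dipeptidyl peptidase, averaged 115 ± 9.57 CPM in EKO-BMDM-exo cultures, 109 ± 1.38 CPM in WT-BMDM-exo cultures and 91.3 ± 7.86 CPM in PBS cultures, and Tpp1, a tripeptidyl peptidase, rose after both as well. In EKO-BMDM-exo over PBS, Tpp1 lost its call without EKO-BMDM-exo replicate 3 (adjusted p = 0.138) or PBS replicate 2 (0.0882), and Cpq lost it without 4 libraries in turn, with the highest adjusted p, 0.209, without EKO-BMDM-exo replicate 2. In WT-BMDM-exo over PBS, Tpp1 lost it without WT-BMDM-exo replicate 3 (adjusted p = 0.139) or PBS replicate 2 (0.0833), and Scpep1 without 4 libraries in turn, at most 0.0815 without WT-BMDM-exo replicate 1. The Dpp7 call for EKO-BMDM-exo held in each fit that left out 1 library. That for WT-BMDM-exo ended without replicate 1 or 2 of PBS (adjusted p = 0.0567 and 0.0679). Lgmn, the legumain that cleaves cathepsin precursors, had log2 fold changes of -0.070 ± 0.030 for EKO-BMDM-exo over PBS and 0.019 ± 0.030 for WT-BMDM-exo over PBS and did not pass (edgeR adjusted p = 0.256 and 0.874). The median log2 fold change of the 10 was 0.056 for EKO-BMDM-exo over PBS and 0.046 for WT-BMDM-exo over PBS.

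Among 26 other lysosomal hydrolases, 3 rose (Psap, Gla and Naglu) and 1 fell (Acp2) for EKO-BMDM-exo over PBS, and 7 rose for WT-BMDM-exo over PBS, among them Psap, Naglu, Hexa and Gla. Over all genes tested, 1.82% rose and 2.41% fell in the first comparison, and 1.93% rose and 2.18% fell in the second. Psap, the precursor of the saposins, averaged 13664 CPM in EKO-BMDM-exo cultures, 14571 CPM in WT-BMDM-exo cultures and 12515 CPM in PBS cultures, with log2 fold changes of 0.13 ± 0.025 and 0.22 ± 0.025 against PBS (edgeR adjusted p = 0.000705 and 1.13e-07). The Naglu call for EKO-BMDM-exo ended without 4 libraries in turn (adjusted p at most 0.157, without PBS replicate 1). The medians of the 26 were 0.028 and 0.061. Between the exosome groups, Lipa, the lysosomal acid lipase gene, was the 1 gene of the protease, inhibitor, sorting, hydrolase, MHC class II and transcription factor lists that passed; among the marker lists Fcgr1 passed as well. Lipa averaged 3237 CPM in EKO-BMDM-exo cultures and 2975 CPM in WT-BMDM-exo cultures, a fold change of 0.12 ± 0.027 on the log2 scale (edgeR adjusted p = 0.0159). The call ended without replicate 1 or 3 of EKO-BMDM-exo (adjusted p = 0.194 and 0.151) and without replicate 2 or 3 of WT-BMDM-exo (adjusted p = 0.188 and 0.0919).

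Of 14 genes that sort hydrolases to lysosomes, 4 rose (Gnptab, Lrp1, Vps35 and Igf2r) and 1 fell (Sorl1) for EKO-BMDM-exo over PBS. For WT-BMDM-exo over PBS 3 rose (Gnptab, Igf2r and Vps35) and 2 fell (Sorl1 and Sort1). Of all genes tested, 1.82% rose and 2.41% fell for EKO-BMDM-exo, and 1.93% rose and 2.18% fell for WT-BMDM-exo. Gnptab, which encodes part of the enzyme that starts the mannose 6-phosphate tag, averaged 239 ± 4.37 CPM in EKO-BMDM-exo cultures, 251 ± 11.3 CPM in WT-BMDM-exo cultures and 210 ± 1.82 CPM in PBS cultures, log2 fold changes of 0.18 ± 0.040 and 0.25 ± 0.040 (edgeR adjusted p = 0.00261 and 4.19e-05). Igf2r, the large receptor for that tag, rose after both (log2 fold changes 0.11 and 0.17), and M6pr, the small one, did not pass. The sorting receptor Sorl1 fell after both, by 0.13 and 0.17 on the log2 scale. In fits that left out 1 library in turn, Gnptab alone of the 5 genes called for EKO-BMDM-exo always kept its call, and 4 of the 5 did for WT-BMDM-exo. For EKO-BMDM-exo, Igf2r lost its call without any 1 EKO-BMDM-exo library, replicate 1 of WT-BMDM-exo or replicate 1 or 2 of PBS (adjusted p up to 0.257), and Sorl1 without any 1 library but replicate 1 of WT-BMDM-exo (adjusted p up to 0.287). Lrp1 and Vps35 reached adjusted p of 0.108 without PBS replicate 1 and 0.131 without PBS replicate 2, and for WT-BMDM-exo Vps35 reached 0.0888 without PBS replicate 2. The Igf2r call for EKO-BMDM-exo also ended with DESeq2's size factors (0.0544), no filter (0.0954) and only the 6 libraries compared (0.0520), and that of Sorl1 with no filter (0.114). The median log2 fold change of the 14 was 0.085 for EKO-BMDM-exo over PBS and 0.061 for WT-BMDM-exo over PBS.

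**Figure D4:**
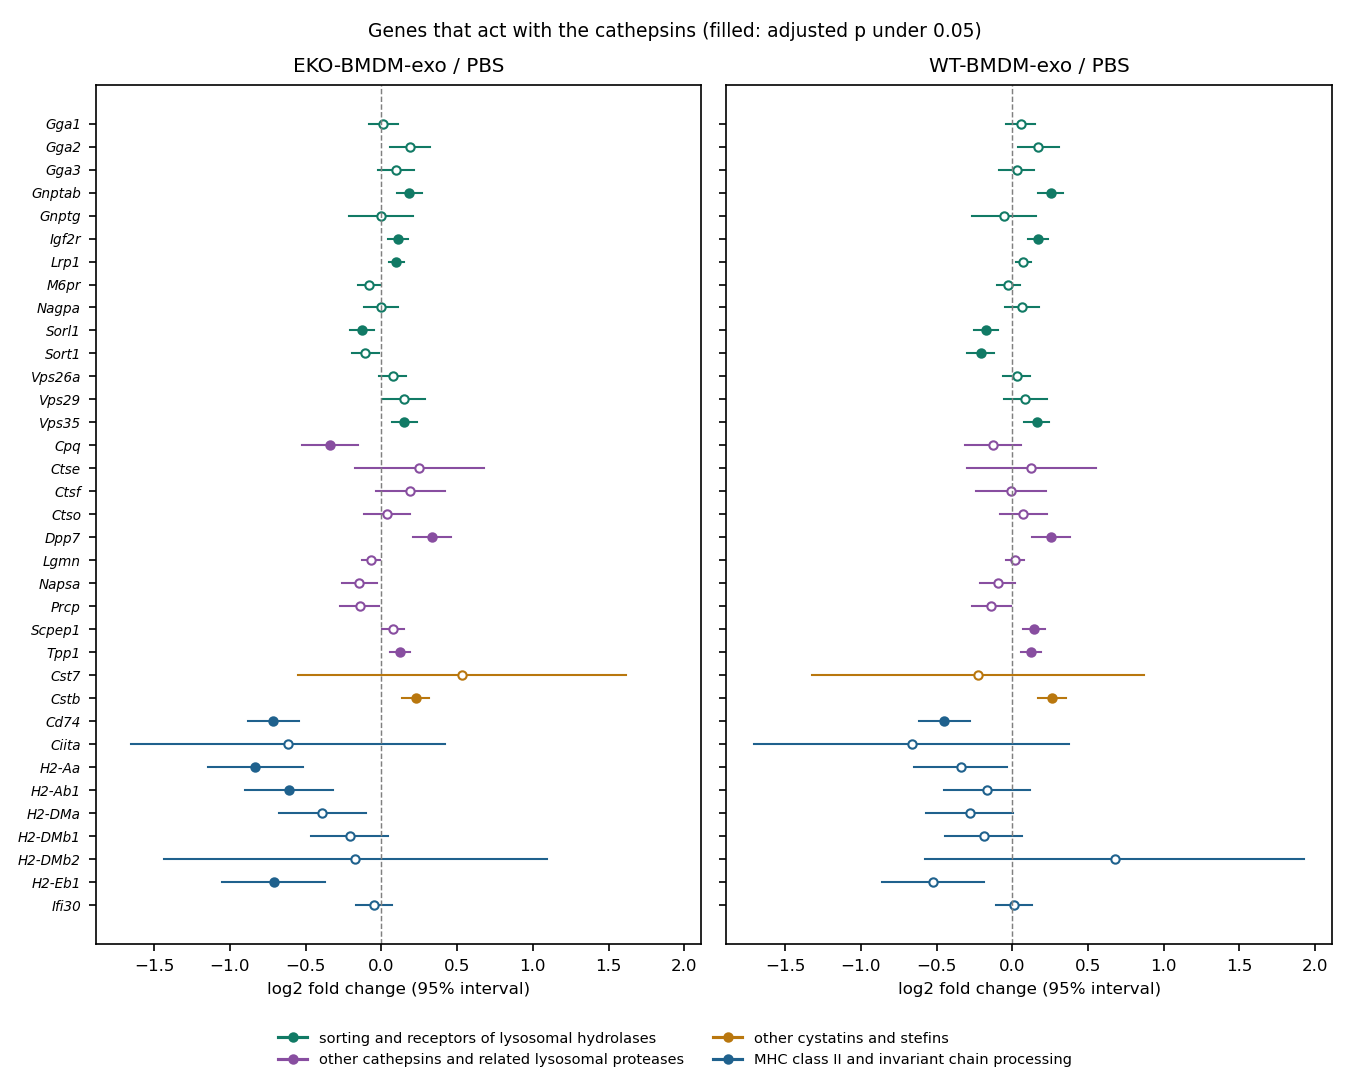
Log2 fold changes with unadjusted 95% intervals of the tested genes of 4 lists, hydrolase sorting, other lysosomal proteases, other cystatins and MHC class II, for EKO-BMDM-exo over PBS and WT-BMDM-exo over PBS (filled points passed an edgeR adjusted p of 0.05). Cstb, Dpp7, Tpp1 and Gnptab lie right of 0 in both panels, and Cd74 lies left of 0 in both.

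Cathepsin S trims the invariant chain of MHC class II, and of 9 genes of that pathway 4 fell for EKO-BMDM-exo over PBS and 1 for WT-BMDM-exo over PBS. Over all genes tested these shares were 2.41% and 2.18%. Cd74, the invariant chain, averaged 41.6 ± 1.49 CPM in EKO-BMDM-exo cultures, 50.03 ± 7.17 CPM in WT-BMDM-exo cultures and 68.3 ± 3.83 CPM in PBS cultures, log2 fold changes of -0.71 ± 0.083 and -0.45 ± 0.082 (edgeR adjusted p = 1.52e-07 and 0.000384). The list's median log2 fold change was -0.61 for EKO-BMDM-exo over PBS and -0.28 for WT-BMDM-exo over PBS. H2-Aa, H2-Ab1 and H2-Eb1 fell by 0.83, 0.61 and 0.71 on the log2 scale in EKO-BMDM-exo cultures. For WT-BMDM-exo over PBS their log2 fold changes were -0.34, -0.16 and -0.53, and none passed (edgeR adjusted p = 0.277, 0.697 and 0.0671). Between the exosome groups none of them passed either (edgeR adjusted p = 0.190, 0.209 and 0.874). The H2-Ab1 call ended without replicate 3 of EKO-BMDM-exo (adjusted p = 0.0830), and the H2-Eb1 call without it (adjusted p = 0.0750) or without replicate 3 of PBS (adjusted p = 0.0593). Of 10 transcription factors linked to cathepsin genes, Spi1, which encodes PU.1, fell for EKO-BMDM-exo over PBS (log2 fold change -0.15 ± 0.033, edgeR adjusted p = 0.00331) and Mitf for WT-BMDM-exo over PBS (-0.24 ± 0.050, adjusted p = 0.00189). Each also averaged below PBS in the other exosome group, without passing. Spi1 averaged 394, 407 and 437 CPM and Mitf 119, 110 and 130 CPM in EKO-BMDM-exo, WT-BMDM-exo and PBS cultures. None of the 10 factors passed between the exosome groups. Tfeb had log2 fold changes of -0.045 ± 0.063 and 0.0034 ± 0.063 and did not pass.

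The macrophage markers were well above 0, and 4 of the 6, Csf1r, Adgre1, Fcgr1 and Itgam, fell against PBS in both exosome groups, while Cd68 rose in WT-BMDM-exo cultures (log2 fold change 0.094, edgeR adjusted p = 0.0490). The 6 summed to 7443 to 7659 CPM in EKO-BMDM-exo cultures, 7840 to 7909 CPM in WT-BMDM-exo cultures and 8362 to 8617 CPM in PBS cultures. Of all genes tested, 2.41% fell for EKO-BMDM-exo over PBS. For WT-BMDM-exo over PBS 2.18% fell and 1.93% rose. Csf1r, the receptor for M-CSF, had log2 fold changes of -0.28 ± 0.027 for EKO-BMDM-exo over PBS and -0.22 ± 0.027 for WT-BMDM-exo over PBS (edgeR adjusted p = 2.35e-09 and 4.54e-07). Their part in the cathepsin results was not tested. The Cd68 call ended without replicate 3 of WT-BMDM-exo (adjusted p = 0.320), replicate 2 of EKO-BMDM-exo (adjusted p = 0.0651) or replicate 1 or 2 of PBS (adjusted p = 0.102 and 0.194), with no filter (0.0512) and with only the 6 libraries compared (0.0651). The Fcgr1 call for WT-BMDM-exo was lost without replicate 1 or 2 of them (adjusted p = 0.120 and 0.129) or replicate 2 or 3 of PBS (adjusted p = 0.165 and 0.0901). Between the exosome groups Fcgr1, a receptor for IgG, averaged 92.3 ± 3.24 CPM in EKO-BMDM-exo cultures and 121 ± 4.46 CPM in WT-BMDM-exo cultures (SD, n = 3 each), a log2 difference of -0.39 ± 0.052 (edgeR adjusted p = 9.58e-06) that passed in each fit with 1 library left out. Markers of fibroblasts summed to 5.84 to 24.8 CPM in EKO-BMDM-exo cultures, 16.6 to 29.9 CPM in WT-BMDM-exo cultures and 8.94 to 63.7 CPM in PBS cultures. The highest PBS value came from replicate 3 alone. Summed markers of dendritic, mast, B and T cells reached no more than 3.49 CPM in any library.

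Over the 9 libraries, the tested genes with levels most like those of a member were found by Pearson's r of log2 CPM, which the group differences and shared library scaling also shape. Ctsd was most like Nap1l4 (0.99), Psap (0.98) and Vim (0.97), and Ctsb most like Timm8b, Sdcbp and Ctsd (0.97 each). Ctsz was most like Tmem154 (0.99), Gpnmb (0.97) and Ndst1 (0.97). Ctsl was most like Limd2 (0.98), Fos (0.98) and Ebag9 (0.97), Ctsc most like Ly86, Pou2f2 and St6gal1 (0.97 each), and Cst3 most like Cnpy3 (0.94), Id3 (0.94) and Mrpl12 (0.92). These are descriptions of 9 libraries without a test.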

How the data were processed

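RNA-seq counts of 9 libraries were analysed. Raw counts for each Ensembl gene were deposited, with 1 column per library. STAR 2.7.5c and GRCm38 are named per the submitters' processing notes; not given in the sources used here are the counting tool, annotation release and strand setting. Symbols of 55450 of 55536 IDs, gene positions and lengths came from GENCODE M21. A principal transcript had the lowest APPRIS number, then the best support level, then the greatest length.

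Counts were filtered with filterByExpr (minimum count 10), scaled by TMM and tested with edgeR 4.0.16 in R 4.3.3 (quasi-likelihood, robust, 1 model over 3 groups, 9 libraries). P-values were adjusted by Benjamini-Hochberg over 13815 genes at 0.05, and every adjusted p is edgeR's unless DESeq2 1.42.0 or limma-voom (limma 3.58.1) is named. Standard errors were derived from the F statistics. With 3 against 3 an exact permutation test could reach p = 0.1 at best and was not used. The fits were tested on simulated data first. No pair of libraries agreed within sampling noise by chi-square over genes. Depth was 28581306 to 35929596 counts a library, and the biological coefficient of variation 12.0%.

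The members, gene lists and tests were chosen with earlier results of these data known. All 10 genes are named in every comparison, and up to 4 called genes with the lowest p from each other list, with the 3 genes most like each member that passed a test (mean of at least 5 CPM). Lgmn, M6pr, Tfeb, Elane, Calcr, Ocstamp, Cst7 and the cathepsin A partners were named for their role outside this rule. Cd68, Acp5, Dcstamp and Mmp9 were named because they complete a count. A gene of the hydrolase list is not reported here by name. Alternatives were other scaling, no filter, DESeq2, limma-voom, a replicate block, only the 6 libraries compared, and each library left out.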

Additional observations from a re-analysis of the deposited data

Results flagged for a closer look

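Ctsb differed between the exosome groups by the test of that difference itself. Its log2 fold change for EKO-BMDM-exo over WT-BMDM-exo was -0.096, with 16510.3 ± 274 CPM in EKO-BMDM-exo cultures and 17640.4 ± 269 CPM in WT-BMDM-exo cultures (SD, n = 3 each; edgeR adjusted p = 0.0169). All 3 EKO-BMDM-exo libraries lay below all 3 WT-BMDM-exo libraries, as they did for 7.01% of all genes tested. Without regard to sign, the median log2 fold change over all genes was 0.103 in this comparison. With each library left out in turn, the adjusted p reached 0.150.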

How the results depend on the processing

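Ctsd, Ctsb, Ctsz, Ctsc and Ctsl kept their direction and their call against PBS, in both exosome groups, under all 15 alternatives run. Between the exosomes, 2 of the 10 genes in place of 1 passed with DESeq2, with limma-voom, with the replicate block and with only the 6 libraries compared, and 0 to 2 passed with each library left out; over all genes, 157 in place of 96 passed with DESeq2 and 52 to 109 with each library left out. The test for any difference passed for 8 of the 10 in place of 5 with DESeq2. The reversed values were all uncalled and between the exosomes. Ctsk had a log2 fold change of 0.0096 with limma-voom and 0.0027 with the replicate block, and -0.18 to 0.26 with each library left out. Under the leave-outs Ctsc ranged from -0.10 to 0.014, Ctss from -0.015 to 0.044 and Ctsz from -0.033 to 0.014. The cause of these changes was not tested. Libraries with the same replicate number did not deviate together (r of -0.035 to 0.040, and 1 of 9 libraries closest to its own number). No pairing by number was seen, though these values cannot show whether libraries of 1 number shared a mouse or a vesicle preparation. With the replicate block, 7, 6 and 2 of the 10 genes passed for EKO-BMDM-exo over PBS, WT-BMDM-exo over PBS and between the exosomes. Of all genes 662, 669 and 144 passed, against 585, 568 and 96 in the main fit. Ctsk had few counts, 96 to 190 a library, and their part in its spread was not tested.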
